A study of Homo sapiens with 24 samples.

Results

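SRF, 33 genes of the actin cytoskeleton that it is known to control and its cofactors MKL1 and MKL2 were followed through the knockdown of IGF2BP1 in 4 human cancer cell lines. The 34 listed genes and the 2 cofactors were taken by gene symbol from tables of 58174 genes, and all 36 were found in each table. Total RNA had been depleted of ribosomal RNA and sequenced from cells given either a control siRNA (siC) or a siRNA pool directed at IGF2BP1 (siI1), an oncofetal RNA-binding protein, and the study asked which transcripts depend on that protein. The lines were A549 (lung adenocarcinoma), ES2 (ovarian carcinoma), MV3 (amelanotic melanoma) and PANC1 (pancreatic ductal adenocarcinoma), each with 3 siC and 3 siI1 libraries, harvested 72 h after transfection or, in PANC1, after 96 h. Each tissue is thus represented by a single line, all cells of both groups had been transfected, and for PANC1 the line and the harvest time cannot be told apart. The study's methods call the 3 libraries of a condition biological replicates; separate cultures are not named in the labels.

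SRF (serum response factor) is a transcription factor that binds a short AT-rich element, the CArG box, in front of many genes for contractile and actin-binding proteins. Its myocardin-related cofactors, here under the names MKL1 and MKL2, are held in the cytoplasm by monomeric actin, so that actin polymerisation frees them to enter the nucleus and switch these genes on. Actins, tropomyosins, non-muscle myosin and focal adhesion proteins made in this way build the stress fibres with which cultured tumour cells attach and crawl.

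Promoter sequences of the genes were searched first for the element itself, since it is the one sequence that the group is known to share. RefSeq windows (GRCh38.p14) of 250 bases before and 50 bases after an annotated start were found for 31 of the 34 genes and both cofactors; ACTB, TAGLN and MYL9 had no entry. An exact CArG box on either strand (the consensus reads the same on both) was present in at least 1 window of 10 of these 31 genes, 32.3%, against 1.60% of the 27305 genes in the table. Counted by window the shares were 18.8% of 64 and 1.29% of 35116. With 1 mismatch allowed, 14 of the 31 genes had a match, 45.2%, against 22.3% of all genes. The 10 genes were SRF, ACTG1, CNN2, TPM4, MYLK, ACTN1, FLNA, FHL1, FHL2 and TGFB1I1, and SRF had 2 boxes in the same window. The genes were listed as ones that SRF is known to control, so the shares of the group are not independent of that choice. A match describes these letters only, and the lack of one in these windows says nothing about SRF at that gene.

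The 200 bases upstream of the start are shown for 3 of them, 5′ to 3′ on the coding strand with each CArG box in capitals: SRF itself, FLNA, which fell with it in 3 lines, and CNN2, which moved in opposite directions in different lines. They lie at chr6:43171069-43171268 (plus strand, SRF), chr19:1026408-1026607 (plus, CNN2) and chrX:154374635-154374834 (minus, FLNA).
SRF: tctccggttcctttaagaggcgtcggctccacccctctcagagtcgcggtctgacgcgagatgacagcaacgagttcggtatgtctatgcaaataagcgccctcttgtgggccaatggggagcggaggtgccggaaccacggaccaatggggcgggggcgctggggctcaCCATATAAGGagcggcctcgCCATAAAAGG
CNN2: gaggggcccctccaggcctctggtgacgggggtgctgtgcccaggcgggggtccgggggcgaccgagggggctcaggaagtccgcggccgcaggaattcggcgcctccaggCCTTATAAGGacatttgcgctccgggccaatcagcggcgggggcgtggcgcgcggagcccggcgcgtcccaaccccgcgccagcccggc
FLNA: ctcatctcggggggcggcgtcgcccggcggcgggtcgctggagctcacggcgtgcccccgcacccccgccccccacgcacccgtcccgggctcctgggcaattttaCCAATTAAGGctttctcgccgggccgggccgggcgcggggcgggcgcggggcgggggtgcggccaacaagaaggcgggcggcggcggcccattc
In SRF the boxes began 30 and 10 bases before the start, in FLNA a single box began 94 bases and in CNN2 89 bases before it. ACTG1 also had 1 box, 94 bases before an annotated start. The windows follow each annotated start. Those with a box in ACTG1, TPM4, MYLK, ACTN1, FHL1 and TGFB1I1 belong to starts clearly inside the annotated gene, as does a window with a box in FHL2. The MYLK window lies near the 3′ end of the gene and is not the promoter of its full-length transcript. Of the 10 genes with an exact box, 8 were lower and 3 higher after the knockdown in at least 1 line; of the 21 genes without one, 16 were lower and 9 higher. Over all 21740 genes tested in at least 1 line these shares were 24.8% lower and 24% higher, and over the abundant genes (20 FPKM or more on average in every line) 55.8% and 43.7%. No test was made of a difference between genes with and without a box.

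Values are FPKM (fragments scaled by gene length and by the size of the library), and the 4 tables had been normalised separately. Reads assigned to genes ranged from 3105215 per library in A549 to 20082702 in MV3. A gene was tested in a line if its mean was at least 0.5 FPKM; changes are log2 fold changes (siI1 minus siC) of FPKM + 0.5, which understate the change of low genes, with their SE, and a change was called at a limma adjusted p under 0.05 over all genes of the line. In bulk RNA, fewer cells of a type and less RNA per cell cannot be told apart. IGF2BP1 was lower in every siI1 library than in any siC library of its line, with changes of -1.32 (A549), -1.55 (ES2), -1.52 (MV3) and -1.83 (PANC1) on the log2 scale. Epithelial markers were present in A549 and PANC1, where all 6 averaged at least 1 FPKM. The lineage markers of 3 lines were absent: 3 of 4 lung genes were at 0 in every A549 library, 2 of 4 ovarian carcinoma genes in every ES2 library and 4 of 7 melanocytic genes in every MV3 library, and none of these lists had a gene with a mean of 1 FPKM in its own line. Of the 5 pancreatic ductal genes, 3 averaged at least 1 FPKM in PANC1. That list does not mark PANC1 alone: 4 of the 5 did so in A549, 2 in ES2 and 1 in MV3. KRT7 and KRT19 are also on the epithelial list. Markers of smooth muscle, the tissue that uses many of the 34 genes for contraction, summed to at most 0.554 FPKM in any library. A scaling limit applies most to PANC1. RN7SL2, a 7SL RNA of the signal recognition particle, took 50.1 to 56.2% of the FPKM sum in siC and 62.0 to 64.6% in siI1, and rescaling libraries to the same sum shifted the median change over all PANC1 genes, on the log2 scale, from -0.04 to -0.68 and that of the 34 genes from 0.02 to -0.69. Rises in PANC1 are therefore relative to the deposited scaling, and those whose sign changed under the other scaling are named where they appear. Values under same-sum scaling are in turn to be read beside its median of -0.68 over all PANC1 genes. In MV3 the RN7SL2 share was 43.4 to 44.2% in siC and 47.3 to 48.5% in siI1. There the median of the 34 genes was -0.18 under same-sum scaling. A sum without RN7SL2 moved it from -0.17 to -0.07, and that of all MV3 genes from 0.01 to 0.10. The same sum moved these medians in ES2 from -0.05 to 0.07 and from -0.02 to 0.09.

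In control cells these genes were among the most abundant mRNAs. The median siC level was 45.4 FPKM (A549), 34.7 (ES2), 43.6 (MV3) and 25.0 (PANC1), and the median percentile among protein-coding genes was 96.4, 94.4, 95.8 and 93.0 in the same order. ACTB had the highest and ACTG1 the next level of all 36 genes in every line. CNN1, the smooth muscle calponin, did not exceed 0.174 FPKM in any library, and MYL9 was listed at 0 in all libraries of ES2 and MV3 but stood at 8.83 ± 2.05 FPKM in PANC1 siC. Set side by side over separately normalised tables, ACTB differed least between lines, from 729.5 FPKM in ES2 to 976 in A549, and SRF also varied little, from 11.8 in A549 to 17.2 in PANC1. MYH10, CALD1, FLNC, ACTA2, TAGLN and MYL9 were in contrast clearly expressed in some lines and under 1 FPKM in others.

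All calls in A549 were falls, and the other lines had calls in both directions. In A549, 18 of 32 tested genes were lower and 0 higher, where 7.83% of all 18411 genes tested were lower and 5.93% higher. In ES2, 11 of 30 were lower and 6 higher (13% and 10.5% of 16920 genes). In MV3, 15 of 30 were lower and 8 higher (19.5% and 16.3% of 16380 genes). With a sum without RN7SL2, ACTB, TAGLN2, TPM4, ZYX and TGFB1I1 lost their falls in MV3, and ACTG1 and MYL6 gained calls as higher. PANC1 had 8 lower and 6 higher of 30 (13.4% and 11.3% of 15846 genes). When its libraries were rescaled to the same sum 24 were lower and 0 higher, where 8870 of all 16238 genes tested were lower and 96 higher. The median log2 fold change of the tested genes was -0.40 (A549), -0.05 (ES2), -0.17 (MV3) and 0.02 (PANC1), beside medians of all genes of -0.01, -0.02, 0.01 and -0.04. The 0 rises in A549 became 1 with limma voom on the recovered reads, where ACTG1 passed. Of the 72 calls made for the 34 genes over the 4 lines, 50 were kept whichever single library was left out, and 43 under every alternative tried.

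Abundant genes are called more often than others, and these genes are abundant. Where the mean reached 20 FPKM, 17.1% of all genes were lower and 18.3% higher in A549, 31.7% and 16.6% in ES2, 42.5% and 13.8% in MV3, and 18.9% and 29.5% in PANC1. Of the 34 genes, 23, 20, 21 and 21 had a control mean of at least 20 FPKM in A549, ES2, MV3 and PANC1. The counts in ES2, MV3 and PANC1 are thus to be read against a high share of calls among abundant genes in general. Epithelial markers moved alongside: their summed level was 1144 to 1249 FPKM in A549 siC and 526 to 557 in siI1, and 151 to 167 in ES2 siC against 194 to 221 in siI1. In PANC1 the sum was 1342 to 1765 in siC and 2061 to 2214 in siI1, but 1979.8 to 2164 and 1577 to 1789 under same-sum scaling, and of its genes CDH1 went from 4.55 ± 0.453 to 1.20 ± 0.336 FPKM. Markers of blood and endothelium summed to 8.62 to 11.3 FPKM in ES2 siC and 14.6 to 16.5 in siI1, but only 1 of the 4 genes averaged at least 1 FPKM there. Their part in the result was not tested.

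**Figure D1:**
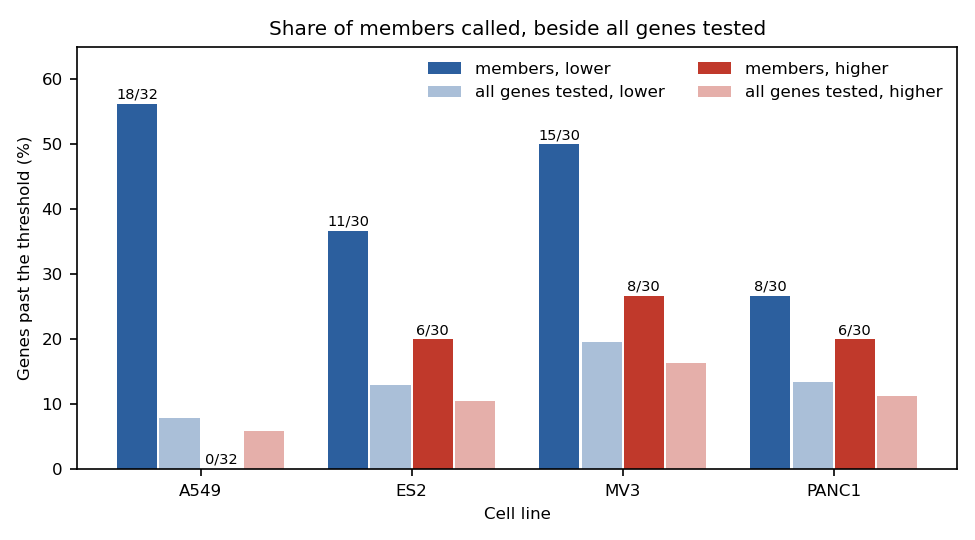
Share of the tested genes of the group (dark bars, with counts) and of all genes tested in the line (pale bars) that were lower (blue) or higher (red) after the knockdown at a limma adjusted p under 0.05, in percent. In A549 18 of 32 were lower and 0 higher, while each of the other lines has calls in both directions. In PANC1 the 6 higher calls become 0 when libraries are rescaled to the same sum, where 8870 of all 16238 genes are lower and 96 higher.

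SRF itself fell in all 4 lines. SRF (ENSG00000112658; hg38 chr6:43171269-43181506, plus strand) was measured at 12.6, 10.4 and 12.3 FPKM in the A549 siC libraries and at 3.85, 3.98 and 3.43 in siI1. ES2 had 13.9, 14.6 and 16.0 FPKM in siC against 5.86, 5.48 and 6.82 in siI1. The highest siI1 library was far below the lowest siC library in each of these lines. In MV3 the levels were 16.4, 16.5 and 15.4 FPKM in siC and 7.80, 8.75 and 8.69 in siI1. PANC1, harvested later, showed the smallest step, from 17.3, 18.0 and 16.4 FPKM to 11.2, 11.5 and 9.11. No siI1 library reached any siC library of its line. The log2 fold changes were -1.53 ± 0.11 (SE) for A549, -1.23 ± 0.10 for ES2, -0.90 ± 0.06 for MV3 and -0.68 ± 0.10 for PANC1, with limma adjusted p of 0.00101, 0.000603, 0.00019 and 0.00528. They differed between the lines by the F test of 1 limma fit over 24 libraries (adjusted p 0.000214). SRF kept its call under every alternative tried in each line.

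The cofactors mostly did not pass the test. MKL1 (ENSG00000196588; chr22:40410281-40636719), which carries the actin signal to SRF, was at 14.9, 12.9 and 18.4 FPKM in A549 siC and 11.8, 10.5 and 11.4 in siI1. All siI1 libraries were lower there, but the log2 fold change of -0.43 did not pass (limma adjusted p 0.0891); it passed with limma voom on recovered reads (-0.46). In the other lines its siC and siI1 libraries overlapped, between 2.41 and 3.47 against 2.12 and 3.29 FPKM in ES2, 1.98 and 2.13 against 2.06 and 2.50 in MV3, and 6.44 and 8.10 against 6.94 and 7.28 in PANC1. Its change of -0.05 in PANC1 became -0.75 under same-sum scaling, where the median of all genes was -0.68. MKL2 (ENSG00000186260; chr16:14071319-14266773), its close relative, was measured in PANC1 at 6.28, 6.30 and 7.28 FPKM in siC and 4.68, 4.77 and 4.77 in siI1. That fall was the only call for a cofactor on the deposited scaling, with a log2 fold change of -0.44 (limma adjusted p 0.0107). Elsewhere MKL2 ranged from 6.05 to 6.61 FPKM in siC and 5.21 to 6.37 in siI1 in A549, from 1.51 to 1.66 and 1.72 to 1.96 in ES2, and from 2.07 to 2.35 and 2.18 to 2.38 in MV3. The knockdown effect on MKL2 differed between lines (limma F adjusted p 0.00084), that on MKL1 did not pass (0.164).

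**Figure D2:**
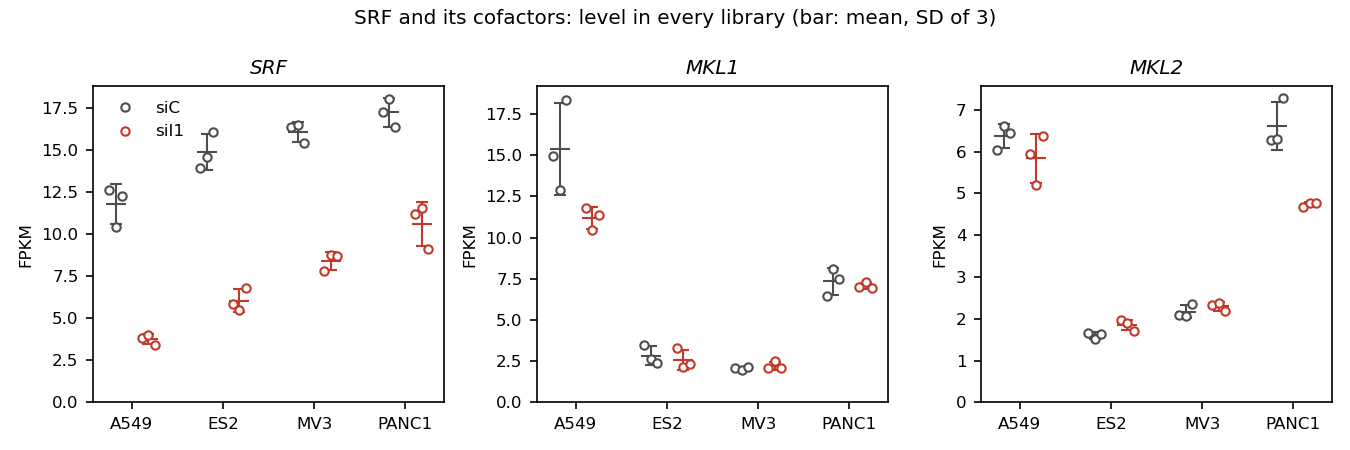
Level of SRF, MKL1 and MKL2 in FPKM (y axes from 0) in each of the 24 libraries, by cell line, with siC in grey and siI1 in red; points are libraries and bars the mean with its SD over 3. SRF is separated in all 4 lines, with at least 10.4 FPKM in A549 siC against at most 3.98 in siI1, while MKL1 overlaps in ES2, MV3 and PANC1.

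The other genes of the SRF switch were counted from a list of 7, which includes SRF and both cofactors. MYOCD, the muscle cofactor, was below the filter in all lines, and of the 6 tested, 2 were lower and 1 higher in A549, 1 and 0 in ES2, 2 and 0 in MV3, and 3 and 1 in PANC1. Of all genes tested, 7.83% were lower and 5.93% higher in A549, 13% and 10.5% in ES2, 19.5% and 16.3% in MV3, and 13.4% and 11.3% in PANC1. ELK4, a ternary complex factor that competes with the myocardin-related cofactors for SRF, fell in A549 (-0.77), MV3 (-0.45) and PANC1 (-1.20), and its log2 fold change in ES2 was -0.26.

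The 2 cytoplasmic actins parted. ACTB (ENSG00000075624; chr7:5526409-5563902), β-actin, was at 969.9, 892 and 1066 FPKM in A549 siC and 692, 719 and 739 in siI1. In ES2 it was at 769.7, 734 and 685 FPKM in siC and 579, 458 and 491 in siI1. MV3 had 958, 985 and 888 against 763, 858 and 796 FPKM, and PANC1 768, 887 and 687 against 563, 582 and 579.6. The groups did not overlap in any line, and ACTB and SRF were the 2 genes of the 28 tested everywhere that were lower in all 4 lines, where 2.51% of 12816 genes were; none was higher in all 4 (0.577% of all genes). The log2 fold changes of ACTB were -0.44 ± 0.08 (A549), -0.52 ± 0.10 (ES2), -0.23 ± 0.07 (MV3) and -0.43 ± 0.11 (PANC1) (limma adjusted p 0.0156, 0.0114, 0.0393 and 0.0281). Outside ES2 these calls depended on single libraries. Leaving out siC replicate 1 or any siI1 replicate raised the adjusted p in A549 to at most 0.0777, as siC replicate 1 or any siI1 replicate did in PANC1 (at most 0.104) and siC replicate 1 or 2 or siI1 replicate 1 or 3 in MV3 (at most 0.138).

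ACTG1 (ENSG00000184009; chr17:81509413-81523847), γ-actin, has the CArG box named above and passed the test in no line, with log2 fold changes of 0.13, 0.02, 0.10 and 0.45 in A549, ES2, MV3 and PANC1. In PANC1 its siC libraries spread from 499 to 769 FPKM and overlapped the siI1 libraries (762 to 880.3), and without siC replicate 2 the change passed (0.63), while under same-sum scaling it was -0.31. With limma voom on the recovered reads ACTG1 passed as higher in A549 (0.12), MV3 (0.10) and PANC1 (0.44). The ratio of ACTB to ACTG1 within a library does not depend on that library's scaling, but was chosen after the values were seen. It was 1.17 ± 0.0190 in A549 siC and 0.787 ± 0.0101 in siI1 (SD, n = 3 each). In ES2 it ran from 1.39 to 2.07 and from 1.04 to 1.23, and it was in MV3 1.71 ± 0.0103 and 1.36 ± 0.0386, and in PANC1 1.31 ± 0.133 and 0.709 ± 0.0440. In all 4 lines the 3 siI1 ratios lay below the 3 siC ratios. With 3 libraries against 3 an exact permutation test cannot go below p = 0.1, so none was run. Both actins have many processed pseudogenes, and how reads shared with them were counted is not given in the sources used here. ACTA2, the smooth muscle α-actin, was expressed in A549 alone (6.43 ± 1.20 FPKM in siC and 7.03 ± 1.88 in siI1, log2 fold change 0.11, not passed), and averaged at most 0.326 FPKM in any group of the other lines.

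**Figure D3:**
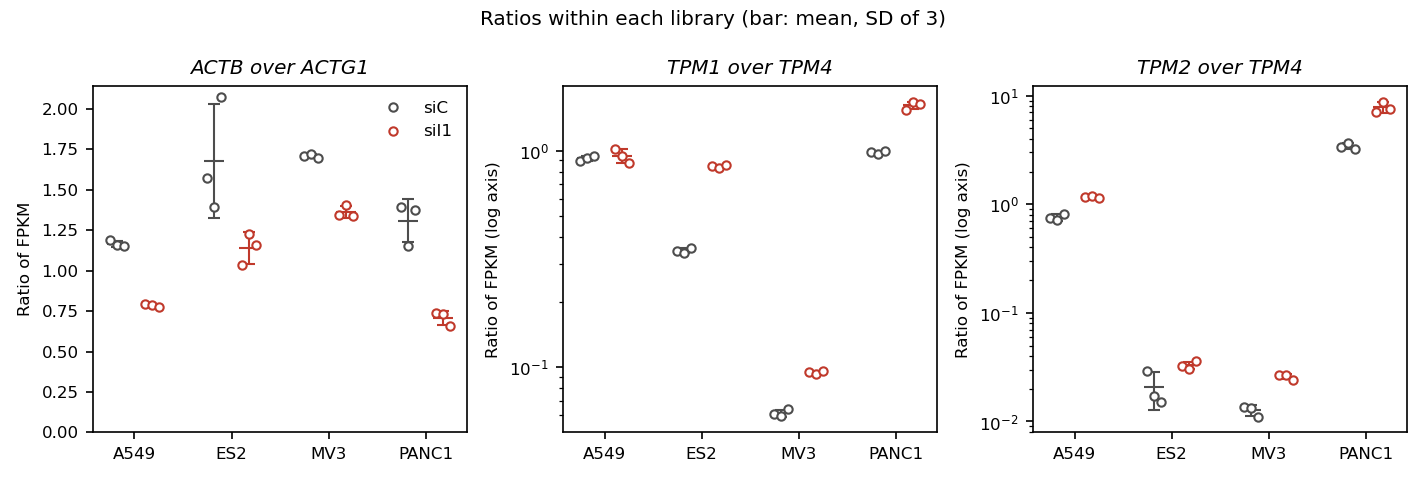
Ratio of FPKM values within each library for ACTB over ACTG1 (linear axis from 0) and for TPM1 and TPM2 over TPM4 (log axes), with siC in grey and siI1 in red; points are libraries and bars the mean with its SD over 3. The actin ratio is lower in siI1 in all 4 lines, from 1.17 to 0.787 in A549, and the TPM2 ratio is higher in all 4, from 3.42 to 7.80 in PANC1.

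Transgelins and calponins are small actin-binding proteins, and they contained both the largest fall and some of the clearest rises. TAGLN (ENSG00000149591; chr11:117199370-117207464), also called SM22α and a classical SRF target, was at 14.2, 16.3 and 14.2 FPKM in A549 siC and 1.59, 2.81 and 2.52 in siI1. In MV3 it was at 7.80, 7.35 and 6.5 FPKM in siC and 2.29, 1.86 and 1.99 in siI1. The groups were far apart in both lines, with log2 fold changes of -2.48 ± 0.18 and -1.60 ± 0.09 (limma adjusted p 0.00121 and 0.000173), the lowest of the whole group in each. ES2 and PANC1 hardly expressed it: no library exceeded 0.332 FPKM in ES2 or 0.578 in PANC1, and it was not tested there.

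TAGLN2, its widely expressed relative, went down in A549 (-0.43) and MV3 (-0.16), did not pass in ES2 (-0.05) and rose in PANC1 by 0.85, from 146 ± 16.1 to 262 ± 6.47 FPKM (SD, n = 3 each; limma adjusted p 0.00212). The rise shrank to 0.09 under same-sum scaling. The fall in MV3 was lost without siC replicate 1 or 2 or siI1 replicate 1 or 3, with adjusted p of at most 0.0933.

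CNN2 (ENSG00000064666; chr19:1026586-1039068), calponin 2, fell in A549 and rose elsewhere. It was at 47.2, 39.9 and 46.9 FPKM in A549 siC and 28.6, 33.8 and 28.0 in siI1. In ES2 the order turned: 36.5, 36.9 and 33.6 FPKM in siC and 68.9, 57.3 and 63.8 in siI1. MV3 had 15.3, 15.0 and 13.7 FPKM against 15.9, 17.7 and 16.5, and PANC1 34.1, 35.6 and 30.7 against 47.1, 47.1 and 45.2. The groups did not overlap in any line. The log2 fold changes were -0.56 (A549), 0.82 (ES2), 0.18 (MV3) and 0.47 (PANC1, but -0.28 under same-sum scaling). The effect differed between lines (limma F adjusted p 3.23e-07). The call in MV3 was lost without any 1 of its 6 libraries (limma adjusted p 0.0492, and at most 0.130), and that in A549 without siC replicate 1 or 3 or siI1 replicate 1 or 3 (at most 0.0761). CNN3 passed only in MV3, from 69.4 ± 3.43 to 76.8 ± 2.02 FPKM (0.15), a call that was lost without siC replicate 2 or 3 or any siI1 replicate (adjusted p at most 0.121). CNN1, the smooth muscle calponin, was never tested.

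Tropomyosins wind along the actin filament and decide which myosins and severing proteins reach it, and the 4 genes did not move as one. TPM1 (ENSG00000140416; chr15:63042620-63071915) was at 87.7, 91.9 and 93.6 FPKM in A549 siC and 56.4, 59.6 and 58.6 in siI1. ES2 started lower, at 21.1, 19.9 and 21.7 FPKM in siC, and reached 50.3, 51.3 and 52.0 in siI1. The control level of A549 was far above that of ES2, and after the knockdown the values of both lines lay close together, although on separately normalised scales. In MV3 it was at 9.45, 9.26 and 9.31 FPKM in siC and 12.4, 12.2 and 12.3 in siI1, and in PANC1 at 24, 24 and 24.1 against 29.5, 28.1 and 28.2. Its log2 fold changes were -0.64 ± 0.05 (A549), 1.27 ± 0.05 (ES2), 0.38 ± 0.03 (MV3) and 0.25 ± 0.05 (PANC1), the last turning to -0.50 under same-sum scaling and losing its call without siC replicate 1 (adjusted p 0.0501). The difference between lines gave a limma F adjusted p of 1.34e-13, the lowest of the group.

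TPM2 (ENSG00000198467; chr9:35681992-35690056) was at 73.8, 71.0 and 81.0 FPKM in A549 siC and 65.6, 74.8 and 77.3 in siI1, where the groups overlapped. In PANC1 it was at 82.4, 91.6 and 78.4 FPKM in siC and 134, 148 and 132 in siI1. Much lower in MV3, it was at 2.1, 2.08 and 1.61 FPKM in siC and 3.48, 3.51 and 3.08 in siI1. It rose in PANC1 by 0.71 (-0.04 under same-sum scaling) and in MV3 by 0.67 on the log2 scale (limma adjusted p 0.00247 and 0.0041). ES2 had 1.81, 1.02 and 0.925 FPKM in siC and 1.92, 1.88 and 2.16 in siI1, a change of 0.54 that did not pass (adjusted p 0.118) unless siC replicate 1 was left out (0.76, 0.0249). TPM3 and TPM4, in contrast, were called only as lower. TPM3 fell in A549 (-0.30), ES2 (-0.37) and MV3 (-0.29), and TPM4 in A549 (-0.68), MV3 (-0.23) and PANC1 (-0.46). TPM3 in PANC1 (-0.05) and TPM4 in ES2 (60.6 ± 1.33 and 60.5 ± 1.00 FPKM) did not pass. Under same-sum scaling TPM3 had a change of -0.80 in PANC1, beside a median of -0.68 over all genes. The A549 call of TPM3 was lost without siC replicate 1 or 3 or siI1 replicate 2 (adjusted p at most 0.0580).

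Ratios within a library were computed for 5 pairs of genes, chosen after the values were seen. Within a library, TPM2 gained on TPM4 in every line. Its ratio to TPM4 was 0.760 ± 0.0543 in A549 siC and 1.17 ± 0.0182 in siI1 (SD, n = 3 each), 0.0206 ± 0.00770 and 0.0329 ± 0.00266 in ES2, 0.0127 ± 0.00139 and 0.0259 ± 0.00151 in MV3, and 3.42 ± 0.219 and 7.80 ± 0.908 in PANC1. The siI1 ratios were above all siC ratios of the line in each case. For TPM1 the same held in ES2 (0.345 ± 0.00916 and 0.847 ± 0.0136), MV3 (0.0615 ± 0.00225 and 0.0949 ± 0.00166) and PANC1 (0.979 ± 0.0170 and 1.61 ± 0.0647), but in A549 the ratios overlapped (0.920 ± 0.0263 and 0.945 ± 0.0687).

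Non-muscle myosin II, the motor of stress fibres, showed its strongest falls in the heavy chain MYH9 (ENSG00000100345; chr22:36281280-36388010). MYH9 was at 200.1, 198 and 215 FPKM in A549 siC and 85.0, 89.0 and 89.1 in siI1. MV3 had 236, 241 and 227 FPKM in siC and 126, 137 and 134 in siI1, and PANC1 175, 184 and 178 against 117, 125 and 109.7. All 3 lines showed a gap between the groups wider than the range of either. In ES2 they overlapped, at 124, 136 and 131 FPKM in siC and 137, 129 and 136 in siI1. The log2 fold changes were -1.22 ± 0.05 in A549, -0.82 ± 0.04 in MV3, -0.61 ± 0.06 in PANC1 and 0.04 ± 0.05 in ES2 (limma adjusted p 0.000351, 0.000152, 0.00213 and 0.62), and they differed between lines (limma F adjusted p 2.44e-09). The 95% interval of the change in ES2 ran from -0.08 to 0.16. The 3 calls were kept under every alternative.

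MYH10, the second non-muscle heavy chain, passed only in PANC1 (8.57 ± 0.623 to 6.45 ± 0.176 FPKM, -0.38), a call lost without siI1 replicate 1 (adjusted p 0.0503), and was nearly absent from MV3, at 0.0142 FPKM or less in each library. The essential light chain MYL6 fell in A549, from 150.3 ± 4.22 to 107 ± 0.287 FPKM (-0.48), and was called higher in ES2 (0.17) and PANC1 (0.34, but -0.42 under same-sum scaling). Both rises were weak: the one in ES2 was lost without any 1 of the 6 libraries (adjusted p at most 0.120) and that in PANC1 without siC replicate 1 or siI1 replicate 1 or 3 (at most 0.0632). In MV3 its change of 0.11 passed only without siC replicate 1 (0.15, adjusted p 0.0416). MYL9, a regulatory light chain of smooth muscle and stress fibres, was tested in PANC1 alone (8.83 ± 2.05 and 6.03 ± 0.898 FPKM, -0.50, limma adjusted p 0.0913). In A549 it was below the filter, with siC libraries from 0.522 to 0.624 FPKM (6 to 7 reads) and siI1 libraries from 0 to 0.156 (0 to 2 reads).

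MYLK (ENSG00000065534; chr3:123610049-123884332), the kinase that switches myosin II on by phosphorylating its light chain, went opposite ways in ES2 and PANC1. In ES2 it was at 14.9, 15.5 and 14.7 FPKM in siC and 25.3, 23.8 and 24.2 in siI1. PANC1 had 2.54, 2.93 and 2.73 FPKM in siC and 1.46, 1.41 and 1.41 in siI1. The log2 fold changes were 0.68 ± 0.05 and -0.75 ± 0.10 (limma adjusted p 0.000392 and 0.0046), without overlap of the libraries in either line. In A549 (4.73 to 4.93 FPKM in siC, 4.27 to 5.05 in siI1) and MV3 (7.30 to 7.66 and 7.43 to 7.88) the groups overlapped, and the effect differed between lines (limma F adjusted p 2.04e-09). CALD1, caldesmon, which covers actin against myosin, fell in A549 (38.3 ± 1.08 to 27.2 ± 1.21 FPKM, -0.49) and rose a little in MV3 (26.1 ± 0.259 to 29.6 ± 0.872, 0.17). That rise did not pass under same-sum scaling (0.16, adjusted p 0.124).

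**Figure D4:**
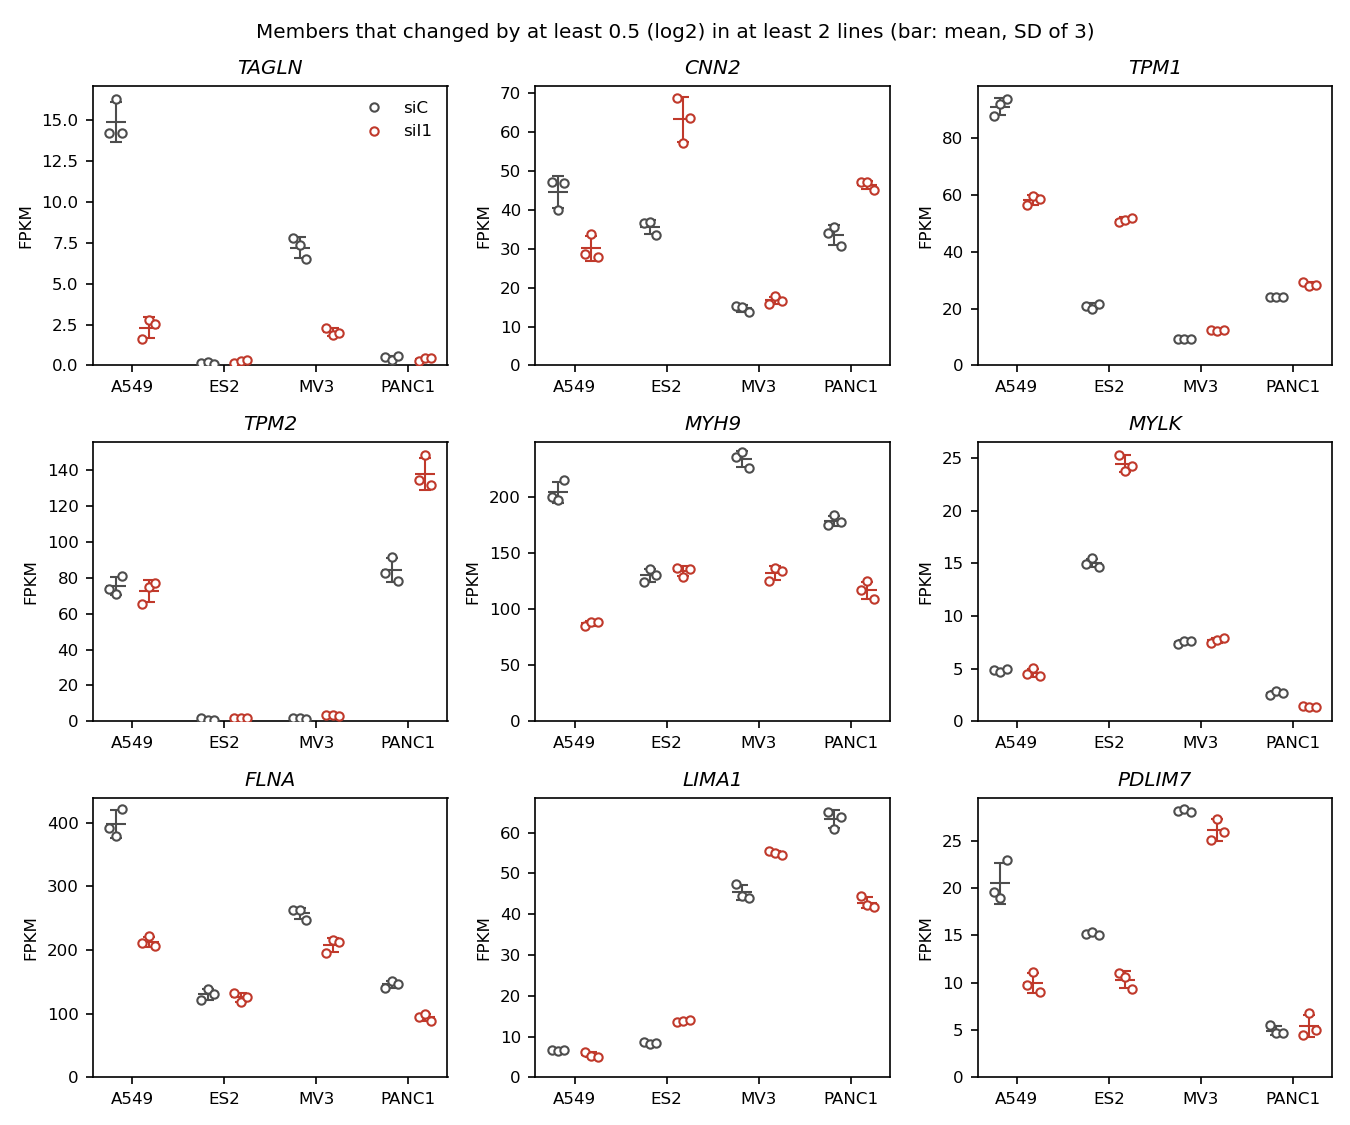
Level in FPKM (y axes from 0) of the 9 genes beside SRF that passed the test in 2 or more lines with a log2 change of 0.5 or larger in either direction, in every library, with siC in grey and siI1 in red; points are libraries and bars the mean with its SD over 3. TPM1 falls in A549 and rises in ES2 to between 50.3 and 52.0 FPKM, LIMA1 rises in ES2 and falls in PANC1, and MYH9 and FLNA fall in A549, MV3 and PANC1 with overlapping groups in ES2; the PANC1 rises of CNN2, TPM1 and TPM2 change sign when libraries are rescaled to the same sum.

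Proteins that cross-link actin filaments included several of the most abundant mRNAs of the group. FLNA (ENSG00000196924; chrX:154348524-154374634), filamin A, was at 391, 379 and 422 FPKM in A549 siC and 211, 222 and 207 in siI1. In MV3 it was at 262, 262 and 248 FPKM in siC and 195, 216 and 213 in siI1. PANC1 had 141, 151 and 146 FPKM against 94.9, 99.1 and 89.0. The siI1 libraries were below the siC libraries in these 3 lines, whereas in ES2 the groups overlapped (122, 139 and 131 against 132, 119 and 126). FLNA fell by 0.90 in A549, by 0.31 in MV3 and by 0.63 in PANC1 on the log2 scale (limma adjusted p 0.00086, 0.00456 and 0.00172), with -0.05 in ES2 (0.604), the same set of lines as MYH9. The calls were kept under every alternative. ACTN1 and ACTN4, the α-actinins of non-muscle cells, fell in the other combination, A549, ES2 and MV3. ACTN1 had log2 fold changes of -0.29, -0.47 and -0.40 there, and 0.08 in PANC1, which turned to a call of -0.66 under same-sum scaling (median of all genes -0.68). ACTN4 had -0.37, -0.60 and -0.39, and -0.06 in PANC1 (-0.82 under that scaling); its A549 call was lost without siC replicate 1 (adjusted p 0.0515).

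FLNC, filamin C of muscle, was abundant in ES2 and MV3 only, and moved apart there: from 95.0 ± 6.88 to 78.8 ± 5.07 FPKM in ES2 (-0.27) and from 43.3 ± 0.973 to 55.8 ± 2.84 in MV3 (0.36). The fall in ES2 was lost without siC replicate 2 or 3 or any siI1 replicate (adjusted p at most 0.113). LIMA1 (ENSG00000050405; chr12:50175788-50283520), or EPLIN, which bundles filaments and slows their breakdown, was at 8.75, 8.23 and 8.32 FPKM in ES2 siC and 13.6, 13.9 and 14.0 in siI1. In MV3 it was at 47.5, 44.6 and 44.1 FPKM in siC and 55.6, 54.9 and 54.6 in siI1. PANC1 went down, from 65.2, 61.0 and 63.8 FPKM to 44.4, 42.4 and 41.7. The log2 fold changes were 0.68 ± 0.05, 0.28 ± 0.04 and -0.56 ± 0.05 (limma adjusted p 0.000507, 0.00183 and 0.00165), all without overlap. In A549 the siI1 libraries (6.30, 5.33 and 5.09 FPKM) were also below siC (6.79, 6.44 and 6.72), but the change of -0.24 did not pass (0.187). These effects differed between lines (limma F adjusted p 3.8e-09).

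**Figure D5:**
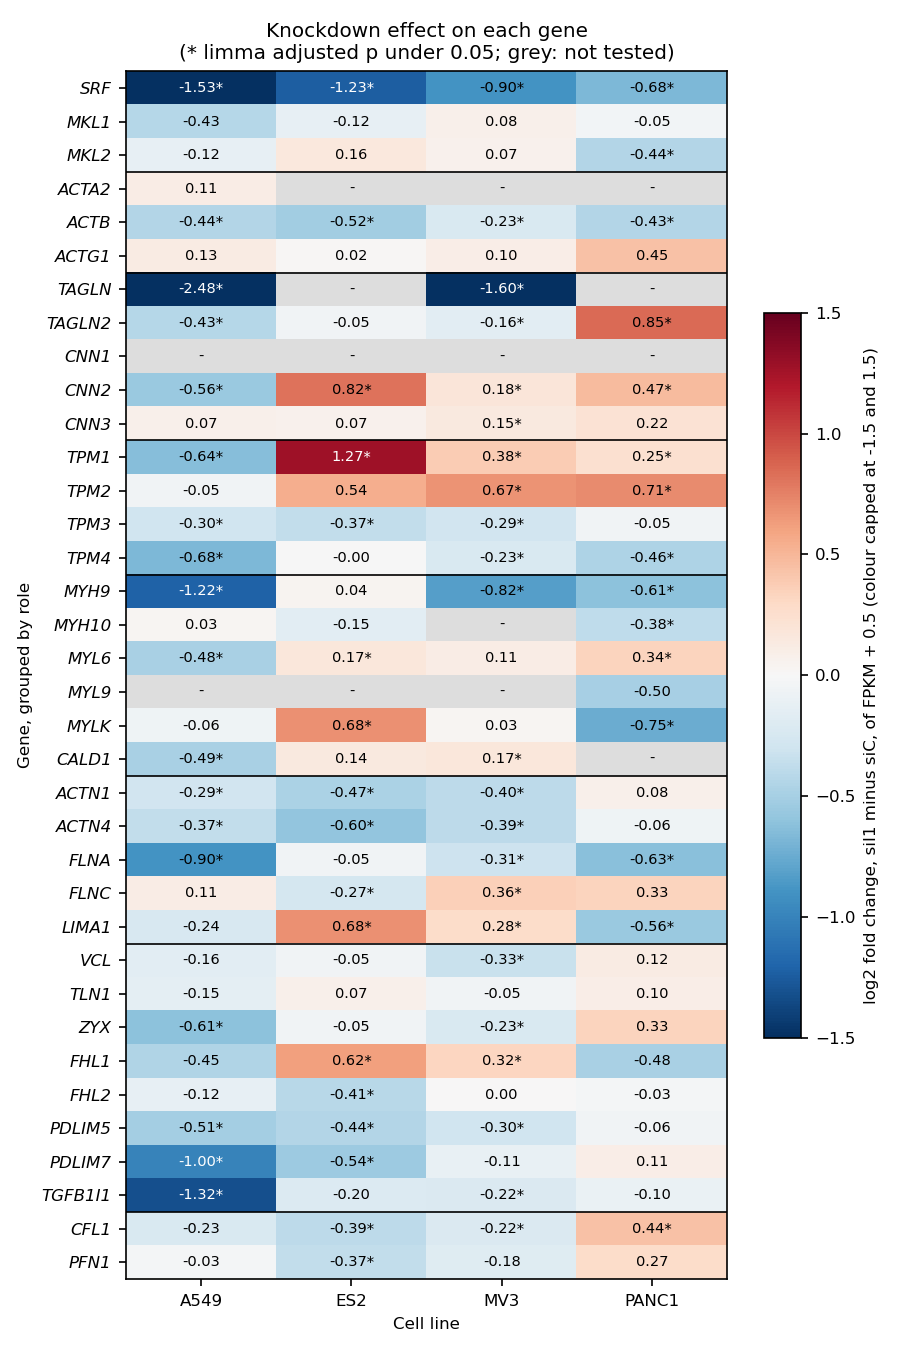
Log2 fold change (siI1 minus siC, of FPKM + 0.5) of each of the 34 genes and the 2 cofactors (rows, grouped by role) in each line (columns); colour runs from blue (lower) to red (higher) and is capped at -1.5 and 1.5, an asterisk marks a limma adjusted p under 0.05 and grey cells were not tested. SRF is lower in all columns, the A549 column holds no higher call, and TPM1 runs from -0.64 in A549 to 1.27 in ES2. Under same-sum scaling the median of the 34 genes in PANC1 moves from 0.02 to -0.69, and that of all PANC1 genes from -0.04 to -0.68.

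Focal adhesion proteins tie stress fibres to integrins, and their 8 genes were called lower 4 times in A549, 3 in ES2, 4 in MV3 and never in PANC1 (all 8 under same-sum scaling), and higher once each in ES2 and MV3. Of all genes tested, 7.83%, 13%, 19.5% and 13.4% were lower in A549, ES2, MV3 and PANC1, and 17.1%, 31.7%, 42.5% and 18.9% of the abundant ones. Higher were 10.5% of all genes in ES2 and 16.3% in MV3. Under same-sum scaling 8870 of 16238 PANC1 genes were lower. PDLIM7 (ENSG00000196923; chr5:177483394-177497606), a LIM protein also known as enigma, was at 19.6, 18.9 and 22.9 FPKM in A549 siC and 9.80, 11.1 and 9.03 in siI1. ES2 had 15.2, 15.3 and 15.0 FPKM in siC and 11, 10.6 and 9.29 in siI1. It fell by 1.00 and 0.54 on the log2 scale (limma adjusted p 0.00329 and 0.00353), with no overlap. In MV3, at 28.1, 28.3 and 28.1 FPKM against 25.1, 27.3 and 26.0, the change of -0.11 missed the threshold (0.0666), which it passed without siI1 replicate 2 (-0.14, 0.0320). PANC1 libraries overlapped (5.52, 4.67 and 4.67 against 4.48, 6.75 and 5.04 FPKM). Under same-sum scaling the change there was -0.59, beside a median of -0.68 over all genes. TGFB1I1, the paxillin-like adaptor Hic-5, fell most in A549, from 6.35 ± 1.44 to 2.21 ± 0.162 FPKM (-1.32 ± 0.17, limma adjusted p 0.00622). Its smaller fall in MV3 (-0.22) was lost without any siC replicate or siI1 replicate 1 or 3 (adjusted p at most 0.108).

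PDLIM5, another LIM protein of stress fibres, fell in A549 (-0.51), ES2 (-0.44) and MV3 (-0.30). The first 2 calls were lost without single libraries, in A549 siC replicate 1 and siI1 replicates 1 and 2 (adjusted p at most 0.0691), in ES2 siC replicates 1 and 2 and siI1 replicates 1 and 3 (at most 0.0552). ZYX, zyxin, which repairs strained fibres, fell in A549, from 28.2 ± 0.383 to 18.3 ± 1.80 FPKM (-0.61), and in MV3 (-0.23), where the call was lost without siC replicate 1 or 2 or any siI1 replicate (adjusted p at most 0.109). Its change of 0.33 in PANC1 passed only without siC replicate 2 (0.47, adjusted p 0.00707) and was -0.41 under same-sum scaling (median of all genes -0.68). FHL1 rose in ES2 (0.62) and MV3 (0.32), with unpassed changes of -0.45 in A549 and -0.48 in PANC1. FHL2, of the same four-and-a-half-LIM family, fell in ES2 alone (-0.41). VCL, vinculin, fell in MV3 (101 ± 2.33 to 80.3 ± 1.42 FPKM, -0.33) and passed in no other line (0.12 in PANC1, and -0.63 under same-sum scaling, where the median was -0.68). TLN1, talin, which couples integrins to actin, passed in none, with log2 fold changes between -0.15 and 0.10. The one in PANC1 became -0.65 under same-sum scaling, beside the same median of -0.68.

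The 2 genes of actin turnover were CFL1, cofilin, which severs filaments, and PFN1, profilin, which recharges monomers. CFL1 fell in ES2, from 195 ± 11.3 to 149 ± 14.7 FPKM (-0.39), and in MV3, from 152 ± 5.50 to 131 ± 8.05 (-0.22), and rose in PANC1, from 142 ± 17.9 to 192 ± 4.27 (0.44, but -0.31 under same-sum scaling). All 3 calls rested on single libraries: ES2 lost it without siC replicate 1 or 2 or siI1 replicate 3 (adjusted p at most 0.0667), MV3 without siC replicate 1 or 2 (at most 0.0798) and PANC1 without siC replicate 1 or any siI1 replicate (at most 0.0748). PFN1 fell in ES2 (-0.37), a call lost without any siC replicate or siI1 replicate 2 or 3 (at most 0.120). In PANC1 its siC libraries overlapped the siI1 libraries, and its change of 0.27 passed only without siC replicate 2 (0.44, adjusted p 0.0229), while same-sum scaling gave -0.48 (median of all genes -0.68). In MV3 its change of -0.18 passed without siC replicate 3 (-0.23, 0.0265).

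The knockdown effect differed between lines for 25 of the 28 genes tested in all 4 (limma F adjusted p under 0.05), where it differed for 45% of 12816 genes and for 75.3% of the 1252 genes with at least 20 FPKM in each line. The 3 that did not pass were ACTB, ACTG1 and CNN3. With Cochran's Q over the fits per line 23 passed, and TLN1 (adjusted p 0.0706) and PDLIM5 (0.0667) did not. Calls in opposite directions were made for 9 of the 34 genes: TAGLN2, CNN2, TPM1, MYL6, MYLK, CALD1, FLNC, LIMA1 and CFL1. Of the 28 tested in all 4 lines 8 had such calls, where 6.03% of all genes tested in all 4 did and 12.5% of those with at least 20 FPKM in each. The PANC1 rises of TAGLN2, MYL6 and CFL1 became 0.09, -0.42 and -0.31 under same-sum scaling. The ES2 rise of MYL6, the ES2 fall of FLNC and the A549 fall of CNN2 were lost without single libraries. The MV3 rise of CALD1 did not pass under same-sum scaling. TPM1, MYLK and LIMA1 kept a call in each direction under every alternative. Apart from SRF and ACTB, 7 of the 28 fell in 3 lines (TPM3, TPM4, MYH9, ACTN1, ACTN4, FLNA and PDLIM5), beside 4.67% of all genes and 10.4% of the abundant ones. The abundant shares here are of genes with at least 20 FPKM in each line. Several of the 28 did not reach that level, such as PDLIM5 (3.27 FPKM in ES2 siC) and TPM1 (9.34 in MV3 siC). The comparison over lines uses each line's own control libraries.

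Genes around this core were counted from 6 lists of the pathway, of which 78 genes lie outside the 36. In A549 20 of 67 tested were lower and 8 higher, in ES2 19 and 13 of 66, in MV3 25 and 10 of 65, and in PANC1 10 and 17 of 66 (50 and 0 under same-sum scaling, with 8870 and 96 of all 16238 genes). Of all genes tested, 7.83% were lower and 5.93% higher in A549, 13% and 10.5% in ES2, 19.5% and 16.3% in MV3, and 13.4% and 11.3% in PANC1. Among abundant genes the shares were 17.1% and 18.3%, 31.7% and 16.6%, 42.5% and 13.8%, and 18.9% and 29.5%. The counts of each list below are to be read beside these shares. The median log2 fold changes of the tested pathway genes were -0.15, -0.09, -0.07 and 0.03.

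The list of the Arp2/3 complex, which branches filaments, and its activators had 13 genes. Of these, 1 was lower in A549 (the activator WASF2), 3 were lower in ES2 (the subunits ARPC2 and ARPC5 and the activator CTTN), 3 were lower and 1 higher in MV3 (ARPC2, WASF2 and CTTN, and WASF1), and 1 was higher in PANC1 (ARPC4, 0.40, but -0.34 under same-sum scaling). These few were named after their values were seen. The medians of the list were -0.10, -0.15, -0.07 and 0.07, the last turning negative under same-sum scaling, where all 13 genes ran from -0.96 to -0.34 (median of all PANC1 genes -0.68). Genes of turnover, capping and monomer binding were called lower in 6 of 17 in A549, 4 of 16 in ES2, 2 of 17 in MV3 and 0 of 17 in PANC1, and higher in 3, 6, 6 and 8 (the last 0 under same-sum scaling). Among them CAP1, which recycles actin monomers, fell in A549 (-0.89), ES2 (-0.44) and MV3 (-0.34). Its tissue-restricted relative CAP2 rose in the same 3 lines (0.34, 0.69 and 0.43), as did the muscle cofilin CFL2 (0.68, 0.53 and 0.17). Gelsolin (GSN), which cuts and caps filaments, rose in ES2 (0.73), MV3 (0.50) and PANC1 (0.26, -0.47 under same-sum scaling), with -0.38 in A549. Of these, CAP2 in A549 lost its call without any siC replicate or siI1 replicate 1 or 2 (adjusted p at most 0.0777), GSN in ES2 without siI1 replicate 3 (0.0527) and GSN in PANC1 without siC replicate 1 or 3 or any siI1 replicate (at most 0.127).

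Among 10 smooth muscle genes outside the 34, 3 were tested in A549 and 2 in each other line, and 1, 2, 2 and 0 of them were lower in A549, ES2, MV3 and PANC1, none higher. CSRP1, a LIM protein of smooth muscle with a CArG-dependent gene, accounted for a fall in A549 (-0.85), ES2 (-0.96) and MV3 (-0.48). It is also on the list of 19 other genes with known SRF control, of which 4 of 15 tested were lower and 2 higher in A549, 7 and 4 of 16 in ES2, 10 and 0 of 14 in MV3, and 2 and 4 of 15 in PANC1. ANKRD1, a stretch-responsive cofactor of muscle genes, fell in ES2 (-0.20), MV3 (-0.80) and PANC1 (-0.83). ITGA5, the fibronectin receptor subunit, rose in A549 (0.34), ES2 (0.43) and PANC1 (0.45, -0.28 under same-sum scaling). Leaving out libraries ended the call of ANKRD1 in ES2 (any of the 6, adjusted p at most 0.0807), in MV3 (siC replicate 1 or siI1 replicate 1 or 2, at most 0.0688) and in PANC1 (siC replicate 2 or 3 or any siI1 replicate, at most 0.120), and that of ITGA5 in A549 (siC replicate 1 or 2 or any siI1 replicate, at most 0.0867).

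IGF2BP proteins bind many mRNAs in the 3′UTR, so the length of that region was compared. The longest annotated 3′UTR had a median of 1308 nt over the 36 genes (from 149 nt in ACTA2 to 6124 nt in TPM3), beside 1237 nt over 18982 protein-coding genes. SRF, with 2316 nt, and TAGLN, with 3105 nt, were above this median, and FLNA (320 nt) and PDLIM7 (295 nt), which also fell, far below it. These genes are examples, and a link between the length and the change was not tested.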

How the data were processed

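Total RNA of 24 libraries, 3 siC and 3 siI1 in each of A549, ES2, MV3 and PANC1, had been depleted of ribosomal RNA and made into directional libraries. According to the study's methods and the submitters' processing notes, reads were trimmed with cutadapt (1.14), aligned to hg38 with HISAT2 (2.1.0), sorted with SAMtools (1.5) and counted per Ensembl gene with featureCounts (1.5.3), and the authors normalised and tested them with edgeR (3.30.3). The strand setting and the treatment of reads shared between copies are not given in the sources used here, so ACTB, ACTG1, TPM3, CFL1, PFN1 and MYL6, which have near-identical pseudogenes, are uncertain. The deposited values used here are FPKM per library, in 1 table per line. The unit was read from the values: whole reads were recovered for 100% of them (tolerance 0.01), and these reads give the depth. The tables' columns of the authors' own log fold changes, p-values and FDR were not used.

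FPKM + 0.5 was log2-transformed, a line kept those genes whose mean in its 6 libraries reached 0.5 FPKM, and siI1 was compared with siC by limma (3.58.1, in R 4.3.3) with Benjamini-Hochberg adjustment and a threshold of 0.05. Effects were compared between lines by the F test of the interaction in 1 limma fit over 24 libraries. Scripts were tested on simulated data. Gene positions are from GENCODE release 44 (hg38), and promoters from RefSeq (GRCh38.p14).

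All 34 genes and both cofactors are named. From each pathway list the genes with calls of the same sign in at least 3 lines were named, at most the 4 with the largest mean absolute change (the genes of 1 list, which count in the totals over the lists, are not reported here), and library values were given for SRF, the cofactors and genes called in 2 or more lines with a log2 change of 0.5 or larger in either direction. ACTB library values, the ratios within a library and the scaling without RN7SL2 were chosen after the values were seen. The genes and lists were chosen with earlier results of these data known. Replicate numbers in the labels did not pair the samples. Alternatives were other pseudocounts, filters and scalings, limma voom on the recovered reads, Cochran's Q between lines, a replicate block and leaving out each library.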

Additional observations from a re-analysis of the deposited data

Results flagged for a closer look

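The effect of the knockdown differed between the 4 lines for 25 of the 28 listed genes tested in all 4, and for the cofactor MKL2. Each was tested by the F test of the interaction in 1 limma fit over 24 libraries, adjusted over 12816 genes. Among transcription factors the adjusted p was 0.000214 for SRF, lower in all 4 lines but to a different extent, and 0.00084 for MKL2. For transgelin and calponin genes it was 2.19e-07 for TAGLN2 and 3.23e-07 for CNN2. The 4 tropomyosins gave 1.34e-13 (TPM1), 0.00781 (TPM2), 0.00363 (TPM3) and 7.3e-06 (TPM4). Of the myosin genes and their kinase, MYH9 gave 2.44e-09, MYL6 2.51e-07 and MYLK 2.04e-09. Crosslinkers gave 7.66e-06 (ACTN1), 9.83e-05 (ACTN4), 1.48e-06 (FLNA), 0.013 (FLNC) and 3.8e-09 (LIMA1). For focal adhesion genes the values were 5.72e-06 (VCL), 0.0393 (TLN1), 0.000491 (ZYX), 0.000385 (FHL1), 0.0141 (FHL2), 0.00723 (PDLIM5), 6.26e-05 (PDLIM7) and 5.63e-05 (TGFB1I1). CFL1 gave 5.87e-05 and PFN1 0.0204. With Cochran's Q over the fits per line TLN1 (adjusted p 0.0706) and PDLIM5 (0.0667) did not pass. Such a difference was also found for 45% of all genes tested and for 75.3% of the 1252 genes with at least 20 FPKM in each line. Not all of the 28 were that abundant. PANC1 differed from the other lines in harvest time, so that line and time cannot be told apart.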

How the results depend on the processing

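Scaling moved most. With PANC1 libraries rescaled to the same FPKM sum, 24 of the 34 genes were lower and 0 higher, 50 and 0 of the other pathway genes, and 6 of the 34 were lower in all 4 lines. Of all 16238 PANC1 genes tested on that scaling, 8870 were lower and 96 higher, with a median log2 fold change of -0.68. Log2 fold changes that turned negative in PANC1 under that scaling and had a call on one of the scalings were -0.28 for CNN2, -0.52 for CNN3, -0.50 for TPM1, -0.0412 for TPM2, -0.42 for MYL6, -0.66 for ACTN1, -0.63 for VCL, -0.65 for TLN1, -0.41 for ZYX, -0.59 for PDLIM7, -0.31 for CFL1, -0.48 for PFN1, -0.47 for GSN, -0.63 for CAP2 and -0.28 for ITGA5. ACTG1 changed sign (-0.31) without a call on either. A sum without RN7SL2, chosen after seeing the data, gave 16 lower and 2 higher of the 34 and 35 and 0 of the other pathway genes in PANC1 (5558 and 313 of all 15986 genes), 4 genes lower in all lines, 14 lower and 19 higher other pathway genes in MV3, 12 lower in ES2 and 5 higher in A549. There TPM1 (-0.17), MYL6 (-0.0810), ACTN1 (-0.33), TLN1 (-0.31), GSN (-0.15) and CAP2 (-0.30) did so too. Without RN7SL2 in the sum, the MV3 falls of ACTB, TAGLN2, TPM4, ZYX and TGFB1I1 lost their calls, and ACTG1 and MYL6 were called higher there. In ES2 the falls of FLNC and PFN1 lost theirs, and CNN3, MYH9 and TLN1 were called higher. Same-sum scaling divides by a sum in which RN7SL2 had a larger share in PANC1 siI1. Which scaling is closer to the cells' RNA was not tested. With limma voom, 1 of the 34 and 13 other pathway genes were higher in A549. Without the filter, 9 other pathway genes were higher in PANC1 and 1 of the 34 was lower in all lines. Same-numbered samples correlated at -0.26 to 0.17 in their deviations from the group means, and no line had every pair over 0.1, so the samples share only a number; with a replicate block 11 of the 34 were lower in A549, 7 in ES2 and 1 in all lines, and 10 lower and 3 higher other pathway genes remained by count in A549 and 12 lower in ES2. Leaving out 1 library gave 7 to 9 of the 34 lower in ES2, 3 to 9 higher in PANC1 and 1 to 2 lower in all lines. For other pathway genes it gave 9 to 16 lower and 3 to 6 higher in A549, and 6 to 10 lower and 6 to 16 higher in PANC1. Over the 34 genes, both cofactors, IGF2BP1 and the named pathway genes, 2238 of 2488 single values kept their direction or, if unpassed, stayed so, and their side of the threshold; 171 lost and 58 gained a call. A549 had the lowest depth, from 3105215 reads per library.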
